A study of Homo sapiens with 16 samples.

Results

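The genes described here are the protein-coding genes for cytosolic translation initiation factors (symbols starting with EIF and a digit) and elongation factors (EEF and a digit), together with the enzymes and regulators that carry these names. They were chosen by symbol alone, without the EIF2AK kinases and without pseudogenes, which gave 67 of the 67938 gene identifiers in each of the deposited count tables. RNA had been sequenced from the cytoplasm and, separately, the nucleus of HepG2, a hepatoblastoma-derived liver cell line, and of SNU-449, a hepatocellular carcinoma cell line. Transfection lasted 48 h, with either a negative-control siRNA (NC) or siPANAD. The latter is a mix of 2 siRNAs, siPANAD-1 with siPANAD-2, aimed at PANAD, the product of C7orf25. The title of the series ties PANAD to NXF1, a receptor for mRNA export, and names the export of CDK6 mRNA and the passage from G1 to S phase. Each of the 8 groups (line, fraction and siRNA) held 2 libraries, stated to be biological duplicates, 16 libraries in all. No untransfected cells and no second control siRNA were analysed here, so every comparison is siPANAD against NC, or nucleus against cytoplasm within NC.

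Translation of most mRNAs starts when EIF4E binds the cap at the 5′ end and, with the scaffold EIF4G and the helicase EIF4A, recruits a small ribosomal subunit that carries EIF3 and a complex of EIF2, GTP and the initiator tRNA. EIF4E-binding proteins (EIF4EBP) block this step when mTORC1, a nutrient-sensing kinase, is not active, and EIF2B recharges EIF2 with GTP. During elongation EEF1A brings charged tRNAs, the EEF1B subunits recharge EEF1A, EEF2 moves the ribosome along and EIF5A helps at difficult peptide bonds. Many of these genes, like those of the ribosomal proteins, produce mRNAs that begin with a C followed by an unbroken run of pyrimidines, the 5′ terminal oligopyrimidine (TOP) motif, through which mTORC1 and LARP1 control their translation and stability.

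C7orf25, the siRNA target, had 0 to 7 counts in every library, too few to tell whether the knockdown worked. Total counts ran from 16238235 to 30321908 per library. The summed level of 9 hepatocyte genes was 23639 to 31465 CPM (counts scaled to a common library total) in HepG2 and 19.8 to 277 CPM in SNU-449. ALB was at 0 in all 4 cytoplasmic libraries of SNU-449. FGB was the exception and made up most of the SNU-449 sum. With NC it was at 272 and 228 CPM in the SNU-449 nucleus, against 129 and 104 CPM in that of HepG2. In the cytoplasm it was at 50.8 and 39.6 CPM against 66.9 and 57.8 CPM. The other markers were near absent from SNU-449. The list of 6 mesenchymal genes did not separate the lines in 1 direction. With NC its sum was 2598 to 2958 CPM in the HepG2 and 1401 to 1552 CPM in the SNU-449 cytoplasm, and 7281 to 7371 against 3694 to 3833 CPM in the nucleus. FN1, which liver cells also make, led the sum in HepG2 (2560.4 and 2922 CPM with NC in the cytoplasm, 9.81 and 6.46 in SNU-449), while VIM was at 1080 to 1750 CPM in SNU-449 and at most 0.243 CPM in HepG2. With siPANAD the mesenchymal sum in the HepG2 cytoplasm was 1131 to 1151 CPM. MALAT1, an RNA held in the nucleus, ran from 370 to 634 CPM in nuclear and from 2.21 to 5.84 CPM in cytoplasmic libraries. With siPANAD, NEAT1, another nuclear RNA, rose in the nucleus of both lines (from 1168 and 1344 to 3274 and 2875 CPM in HepG2, and from 547 and 563 to 2526 and 2682 CPM in SNU-449). MALAT1 rose in the SNU-449 nucleus by 0.53 on the log2 scale (SE 0.094, adjusted p = 1.58e-05). Their part in the results below was not tested.

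The first transcribed bases of the factor genes are shown because the direction of the cytoplasmic differences, given further on, went with them. Of the 67 genes, 54 had an entry in the RefSeq promoter table (GRCh38.p14), and 13 of these 54 (24.1%) had a listed start at which a C is followed by at least 4 bases that are each C or T, called a TOP-like start here. The same rule was met by 5.14% of the 27305 genes of that table and by 49 of 70 cytosolic ribosomal protein genes (70%). The 13 were EEF1A1, EEF1B2, EEF2, EIF2A, EIF2D, EIF2S3, its near-identical copy EIF2S3B, EIF3D, EIF3F, EIF3K, EIF3M, EIF4A2 and EIF4B. A match describes these letters and is neither a proven site nor a cause. Each line below gives 30 bases, 10 before the annotated start and 20 from it on, 5′ to 3′ on the gene's strand. The capitals mark the run of pyrimidines that opens the transcript, or the first base alone where the start is not TOP-like.
EEF1A1 (chr6:73521013-73521042, minus strand): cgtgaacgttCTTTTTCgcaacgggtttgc
EEF2 (chr19:3985444-3985473, minus strand): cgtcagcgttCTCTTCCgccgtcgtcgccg
EEF1B2 (chr2:206159885-206159914, plus strand): ctcttcgggtCCTTTTTCCTCTCTTCagcg
EIF4B (chr12:53006446-53006475, plus strand): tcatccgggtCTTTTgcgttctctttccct
EIF4A2 (chr3:186783567-186783596, plus strand): gcgccgctgtCTTTTCagtcgggcgctgag
EIF2S3 (chrX:24054946-24054975, plus strand): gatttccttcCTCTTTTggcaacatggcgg
EIF3M (chr11:32583821-32583850, plus strand): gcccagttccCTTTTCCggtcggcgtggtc
EIF2A (chr3:150546777-150546806, plus strand): cgagcggtttCTCTTTCCgggacaacatgg
EIF4EBP2 (chr10:70404135-70404164, plus strand): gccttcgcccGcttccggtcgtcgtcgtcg
EIF4E (chr4:98929114-98929143, minus strand): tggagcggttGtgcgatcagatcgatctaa
EIF3B (chr7:2354817-2354846, plus strand): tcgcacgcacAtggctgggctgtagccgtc
EIF3J (chr15:44537137-44537166, plus strand): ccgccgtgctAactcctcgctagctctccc

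In the cytoplasm the factor genes divided. In both lines mRNAs for the elongation factors EEF1A1, EEF1B2, EEF1D and EEF2, for 5 EIF3 subunits, EIF4B, EIF4A2 and the EIF4E inhibitor EIF4EBP2 were higher with siPANAD. Lower in both were mRNAs for EIF4G1, EIF5, EIF5A, EIF6 and the EIF2B subunits EIF2B3 and EIF2B4, while that for EIF4E was lower in HepG2 and did not pass in SNU-449. In HepG2, 18 of the 62 genes tested rose and 24 fell (edgeR's quasi-likelihood test, Benjamini-Hochberg adjusted p under 0.05 over all genes tested), with a median log2 difference of -0.13. Over all 17499 genes tested in that comparison 47.9% passed (23.7% higher and 24.2% lower) with a median of -0.004. The share of factor genes called in HepG2 was thus above this background, which was not matched for level. With a minimum count of 50 a larger share of all genes passed, 7492 of 13517. In SNU-449, 14 of 61 rose and 16 fell, where 39.7% of all genes passed (19.6% higher, 20.1% lower), and the median was -0.07 against 0.04 over all genes. Of the 60 genes tested in both lines, 13 rose in both, 11 fell in both, EIF4G2 went in opposite directions and 13 passed in neither.

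The genes higher in the cytoplasm of both lines were EEF1A1, EEF1B2, EEF1D, EEF2, EIF2S3, EIF3D, EIF3E, EIF3H, EIF3K, EIF3M, EIF4A2, EIF4B and EIF4EBP2. Those lower in both were EEF2KMT, EIF1AD, EIF2A, EIF2B3, EIF2B4, EIF3J, EIF4G1, EIF5, EIF5A, EIF5A2 and EIF6. Across the 60 genes the log2 differences of the lines correlated with a Pearson coefficient of 0.75 and a Spearman coefficient of 0.67 (over all 15017 genes tested in both lines, 0.37 and 0.47). This is a description, since genes are not independent replicates and share their libraries. In these bulk libraries a change in the make-up of the cell population and a change of RNA per cell cannot be told apart.

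**Figure D1:**
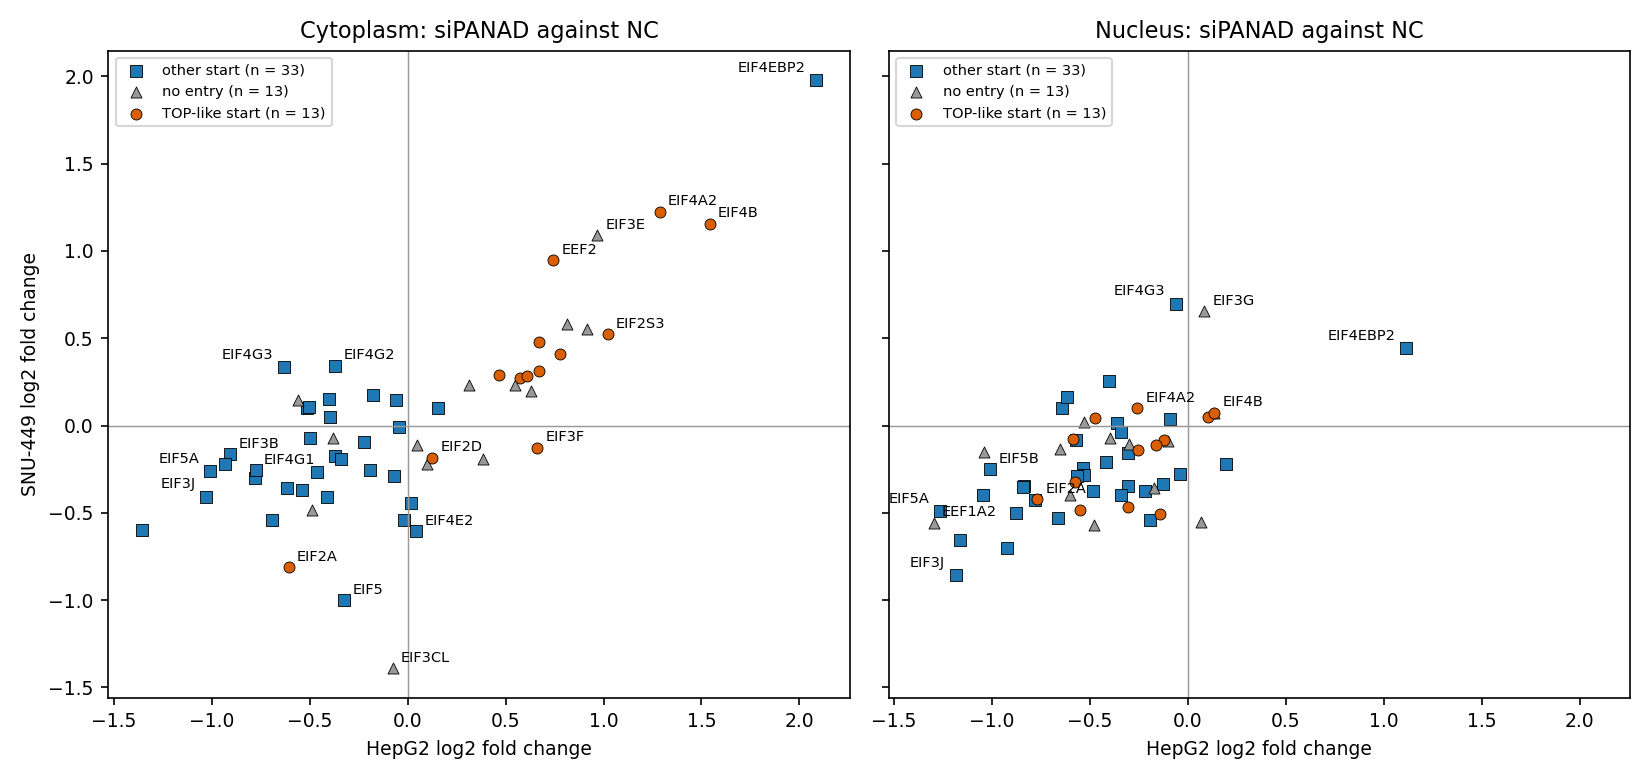
Log2 difference of siPANAD against NC for 59 factor genes, HepG2 on the x axis and SNU-449 on the y axis, in the cytoplasm (left) and the nucleus (right); each point is 1 gene, with 13 genes with a TOP-like start as orange circles, 33 with another start as blue squares and 13 with no promoter entry as grey triangles (EIF4A1, at few counts, is left out). In the cytoplasm most orange circles lie above 0 in both lines and EIF4EBP2 lies farthest up and right (2.08 and 1.98), while in the nucleus most points lie below 0.

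In the nucleus nearly all called factor genes were lower. In HepG2 1 gene rose (EIF4EBP2) and 36 fell of 62, with a median log2 difference of -0.44, where 45.6% of all genes passed (22% higher, 23.6% lower) with a median of -0.03. In SNU-449 5 rose and 30 fell of 61, with a median of -0.25, where 46% of all genes passed (22.1% higher, 23.9% lower) with a median of -0.008. Without replicate 2 of the SNU-449 nuclear siPANAD group the SNU-449 count dropped to 22. EIF4EBP2 was higher in the nucleus of both lines, 22 genes were lower in both, and EIF2B5 and EIF4A1 went in opposite directions. As a share of all counts of a library, the 67 genes went from 3.25% and 3.74% with NC to 4.69% and 4.68% with siPANAD in the HepG2 cytoplasm. In SNU-449 the cytoplasmic share went from 1.86% and 1.83% to 2.51% and 2.49%. In the nucleus the share went from 1.40% and 1.43% to 1.25% and 1.21% in HepG2 and from 1.46% and 1.46% to 1.33% and 1.27% in SNU-449. For the 67 genes together the duplicates did not overlap between NC and siPANAD in any of the 4 fractions. This summed share was higher with siPANAD in the cytoplasm and lower in the nucleus. The cytoplasmic rise lay in the EEF genes. Their share went from 2.2412% and 2.683% to 3.6406% and 3.6516% in HepG2. In SNU-449 it went from 1.0246% and 0.9775% to 1.6502% and 1.6394%. The cytoplasmic share of the EIF genes moved little. It overlapped in HepG2 (1.0127% and 1.0566% against 1.048% and 1.0332%). In SNU-449 it was 0.8351% and 0.8538% against 0.8595% and 0.8554%.

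Among the elongation factors, EEF1A1, which carries charged tRNAs to the ribosome, had the highest level per exon length in the HepG2 cytoplasm with NC, at 3726 ± 619 RPKM (CPM per kilobase of exon; mean ± SD, n = 2), ahead of EEF2 at 1579 ± 225. In SNU-449 the order was EEF2 (1503 ± 49.5) and then EEF1A1 (1042 ± 15.6). On the scale of CPM after TMM scaling, used from here on, EEF1A1 was at 19320 and 24360 with NC and at 34900 and 34620 with siPANAD in the HepG2 cytoplasm. In the SNU-449 cytoplasm it was at 6363 and 6027 against 8943 and 8300. Its nuclear level was 2755 and 3125 with NC against 2459 and 2305 with siPANAD in HepG2, and 2482 and 2690 against 1930 and 1818 in SNU-449. The siPANAD libraries were thus above the NC libraries in the cytoplasm and below them in the nucleus of both lines, with no overlap. The cytoplasmic log2 difference was 0.67 (SE 0.162, adjusted p = 0.00126) in HepG2 and 0.48 (SE 0.093, adjusted p = 6.58e-05) in SNU-449. The nuclear difference passed in SNU-449 (-0.47, SE 0.093, adjusted p = 8.91e-05) and not in HepG2 (-0.30, SE 0.162, adjusted p = 0.129). Between 3.96% and 7.06% of the counts of EEF1A1 and its 49 annotated pseudogenes fell on the pseudogenes.

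EEF2, the translocase that moves the ribosome by 1 codon, was at 6909 and 5625 CPM with NC and at 10560 and 10410 with siPANAD in the HepG2 cytoplasm. In the SNU-449 cytoplasm it went from 6005 and 6086 to 11480 and 11850 CPM. Its nuclear values overlapped between the siRNAs in SNU-449 (2083 and 1925 against 1980 and 1732) and lay slightly lower with siPANAD in HepG2 (1476 and 1541 against 1279 and 1415). The rise in the cytoplasm was 0.74 (SE 0.152, adjusted p = 0.000221) in HepG2 and 0.95 (SE 0.094, adjusted p = 2.07e-10) in SNU-449, a 1.67-fold and a 1.93-fold level. No nuclear difference of EEF2 passed (adjusted p = 0.395 and 0.35). EEF1B2, a subunit of the exchange factor for EEF1A, rose from 2094 and 2411 to 3206 and 3961 CPM in the HepG2 cytoplasm and from 525 and 537 to 663 and 656 CPM in SNU-449. EEF1D, another exchange subunit, rose by 0.55 (SE 0.148, adjusted p = 0.00344) in HepG2 and by 0.23 (SE 0.092, adjusted p = 0.0429) in SNU-449, the latter lost under 8 of the alternative settings. EEF1E1, a scaffold protein of the tRNA synthetase complex, did not follow: it was lower in the nucleus of both lines (-0.92, SE 0.156, adjusted p = 2.84e-05, and -0.70, SE 0.132, adjusted p = 5.05e-05). EEF1A2, the tissue-restricted form of EEF1A, stood at 7.30 and 7.35 CPM with NC in the HepG2 cytoplasm and at 73.8 and 72.4 in SNU-449. It did not pass in either cytoplasm and fell in both nuclei (-1.30, SE 0.239, adjusted p = 8.49e-05, and -0.56, SE 0.109, adjusted p = 6.84e-05). Of the 6 genes tested in this group, 4 rose and 1 fell in the HepG2 cytoplasm and 4 rose in the SNU-449 cytoplasm. In the nuclei 2 and 3 fell and none rose. These small counts are to be read beside the shares over all genes given above.

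**Figure D2:**
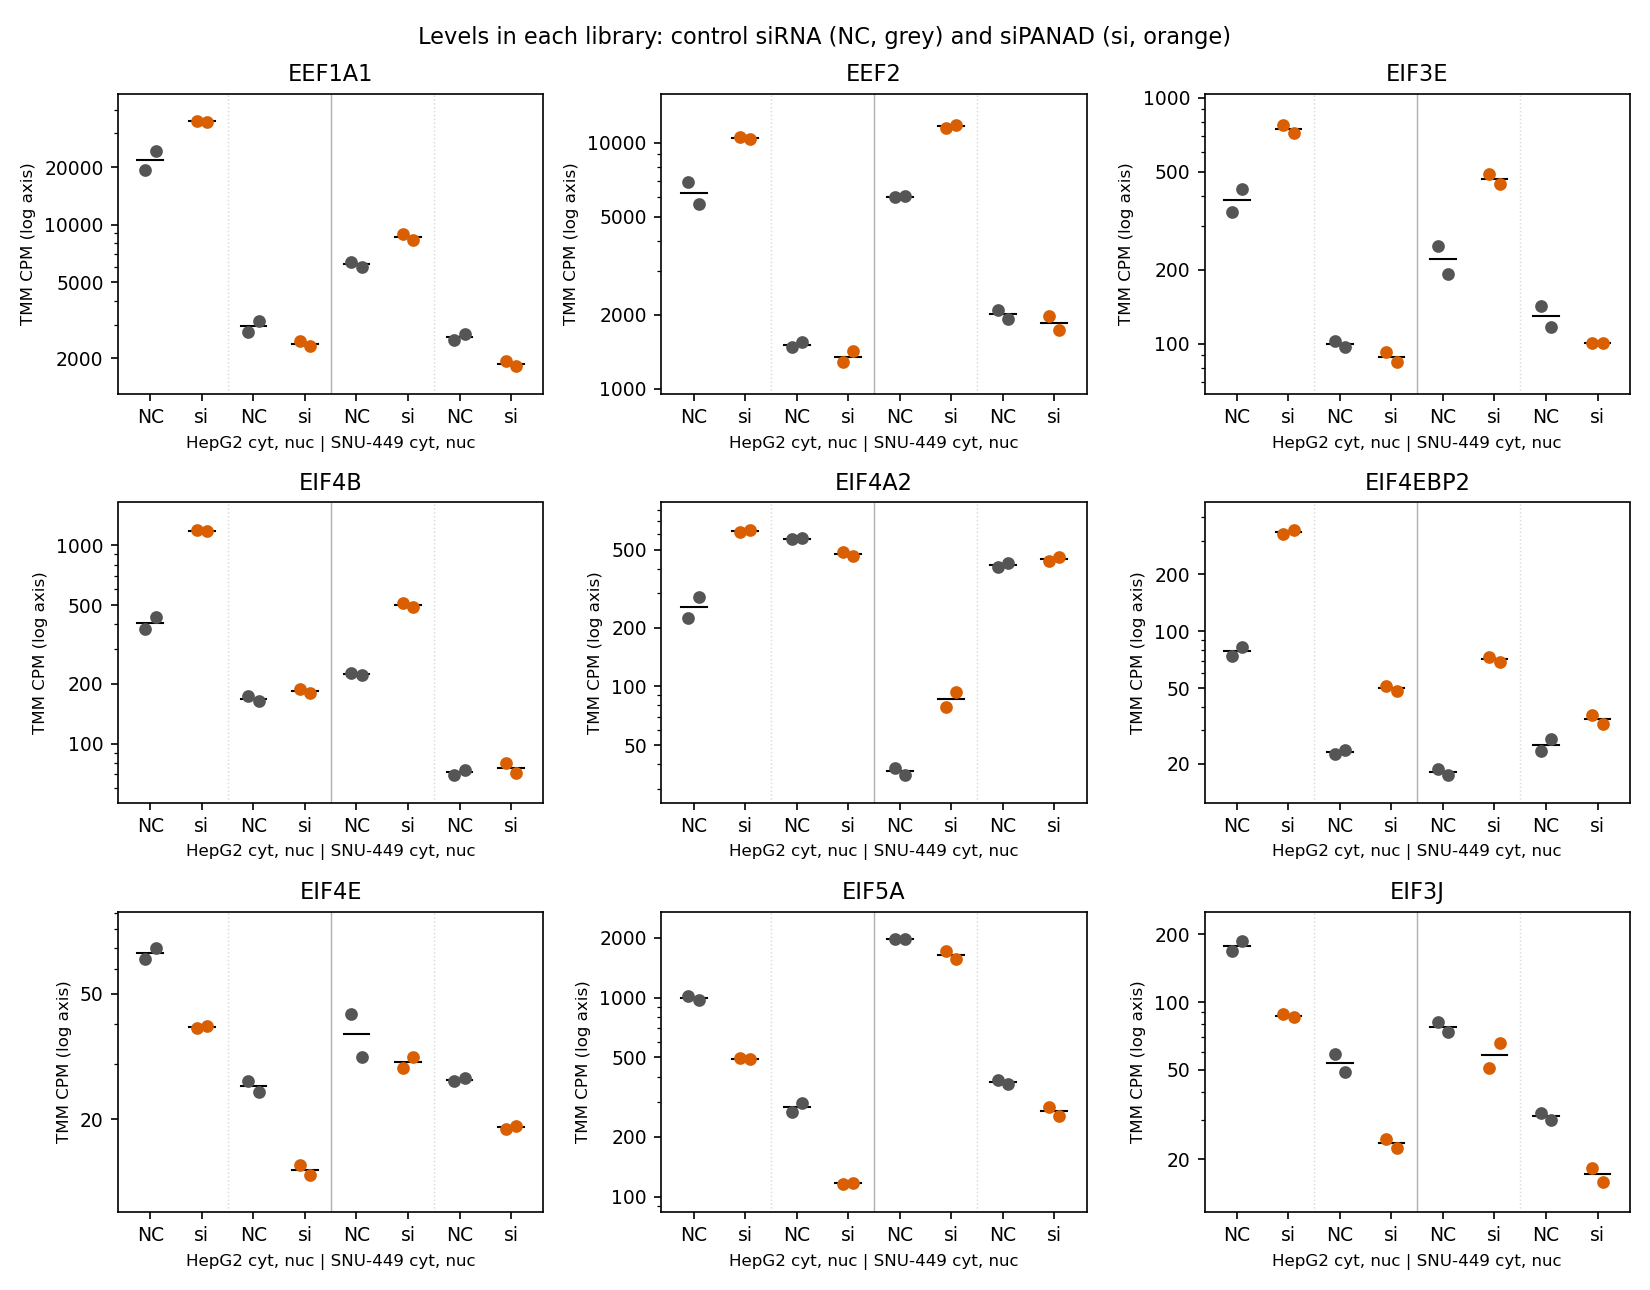
TMM-normalised CPM (log axis) of 9 factor genes in the 16 libraries, by line, fraction and siRNA; each point is 1 library and each short line the mean of the 2 libraries of a group. EEF1A1, EEF2, EIF3E, EIF4B, EIF4A2 and EIF4EBP2 lie higher with siPANAD than with NC in both cytoplasms, while EIF4E, EIF5A and EIF3J lie lower with siPANAD in the HepG2 cytoplasm and in both nuclei.

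The genes of the enzymes that act on the elongation factors mostly stayed below the threshold. EEF2K, the kinase that inactivates EEF2, was at 43.4 and 42.3 CPM with NC against 33.3 and 31.8 with siPANAD in the HepG2 cytoplasm and at 41.5 and 39.2 against 26.6 and 25.2 in its nucleus. In SNU-449 the values overlapped in both fractions (23.2 and 24.3 against 25.3 and 23.9 in the cytoplasm). The kinase fell in HepG2 (-0.40, SE 0.127, adjusted p = 0.0117 in the cytoplasm; -0.64, SE 0.125, adjusted p = 0.000162 in the nucleus). The nuclear effects of the lines differed by 0.72 (SE 0.17, adjusted p = 0.00127 in a fit of all 16 libraries). Without replicate 2 of the HepG2 cytoplasmic siPANAD group its cytoplasmic difference was -0.40 with an adjusted p of 0.0981. EEF2KMT, a lysine methyltransferase of EEF2, was lower in both cytoplasms (-0.49, SE 0.14, adjusted p = 0.00559, and -0.48, SE 0.148, adjusted p = 0.00805). In SNU-449 that call was lost without NC replicate 1 (-0.43, adjusted p = 0.0527) and without siPANAD replicate 2 (-0.39, adjusted p = 0.0905) of the cytoplasm. The methyltransferases of EEF1A tested (EEF1AKMT1 to EEF1AKMT4) passed in none of the 4 comparisons.

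Of the cap-binding complex, the cap-binding protein and its main scaffold went down, while the helicase gene EIF4A2 and EIF4B, which helps the helicase, went up. EIF4E was at 64.4 and 69.8 CPM with NC and at 38.9 and 39.4 with siPANAD in the HepG2 cytoplasm, and at 26.4 and 24.5 against 14.3 and 13.3 in the HepG2 nucleus. In SNU-449 it overlapped in the cytoplasm (43.2 and 31.5 against 29 and 31.6) and was lower in the nucleus (26.5 and 27.0 against 18.7 and 19.1). The log2 differences were -0.78 (SE 0.126, adjusted p = 1.25e-05) and -0.88 (SE 0.132, adjusted p = 6.21e-06) in the HepG2 fractions. In those of SNU-449 they were -0.30 (SE 0.127, adjusted p = 0.0574) and -0.50 (SE 0.124, adjusted p = 0.00117). EIF4G1, the scaffold that joins EIF4E to EIF4A and EIF3, went from 474 and 442 to 278 and 258 CPM in the HepG2 cytoplasm and from 692 and 751 to 409 and 430 CPM in the HepG2 nucleus. It fell there by 0.78 in both fractions (adjusted p = 2.25e-05 and 2.41e-05). In SNU-449 its nuclear level fell (863 and 768 against 604 and 609 CPM, -0.43, SE 0.093, adjusted p = 0.000289). Its cytoplasmic difference in SNU-449 (-0.26, SE 0.094, adjusted p = 0.0289) was lost without NC replicate 2 (-0.11, adjusted p = 0.551), without siPANAD replicate 1 (-0.19, adjusted p = 0.3) and without siPANAD replicate 2 (-0.30, adjusted p = 0.0835) of that fraction, and with DESeq2 (-0.25, adjusted p = 0.0523).

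EIF4A2, a helicase that unwinds the 5′ leader, rose from 223 and 288 to 617 and 631 CPM in the HepG2 cytoplasm and from 38.3 and 35.2 to 78.3 and 93.4 CPM in the SNU-449 cytoplasm. Its nuclear level moved little in either line (567 and 574 against 487 and 465 CPM in HepG2, and 407 and 430 against 438 and 459 CPM in SNU-449). The cytoplasmic differences, 1.29 (SE 0.14, adjusted p = 3.17e-08) and 1.23 (SE 0.104, adjusted p = 4.08e-12), passed, and the nuclear ones did not (adjusted p = 0.126 and 0.384). EIF4B, which stimulates the helicase, gave like values: 379 and 436 against 1190 and 1184 CPM in the HepG2 cytoplasm and 228 and 222 against 513 and 490 CPM in SNU-449. Its log2 differences were 1.54 (SE 0.134, adjusted p = 6.55e-10) and 1.16 (SE 0.091, adjusted p = 5.37e-13), with nuclear adjusted p-values of 0.428 and 0.54. EIF4H, a protein related to EIF4B that also stimulates the helicase, did not rise. The ratio of EIF4B to EIF4H per exon length within a library went from 0.569 and 0.499 to 1.65 and 1.89 in the HepG2 cytoplasm and from 0.173 and 0.151 to 0.436 and 0.424 in the SNU-449 cytoplasm. EIF4A3, the helicase of the exon junction complex, passed in neither cytoplasm (-0.22 and -0.10). The other scaffolds differed by line: EIF4G2, which lacks the EIF4E site, went from 867 and 932 to 644 and 748 CPM in the HepG2 cytoplasm and from 420 and 393 to 503 and 528 CPM in SNU-449. That made it lower in HepG2 (-0.37, SE 0.136, adjusted p = 0.0263) and higher in SNU-449 (0.34, SE 0.088, adjusted p = 0.00181). The HepG2 call was lost without NC replicate 2 (-0.32, adjusted p = 0.0571) and without siPANAD replicate 1 (-0.30, adjusted p = 0.213) of the HepG2 cytoplasm.

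The inhibitors of EIF4E did not act as a group. EIF4EBP2, which binds EIF4E when mTORC1 is inactive, showed the largest rise in the cytoplasm of either line among the factor genes tested. It went from 74.3 and 83.0 to 324 and 343 CPM in the HepG2 cytoplasm and from 18.7 and 17.4 to 73.4 and 68.7 CPM in the SNU-449 cytoplasm, a 4.24-fold and a 3.94-fold level. The log2 differences were 2.08 (SE 0.128, adjusted p = 1.28e-12) and 1.98 (SE 0.119, adjusted p = 4.95e-16). In the nucleus the siPANAD libraries were above the NC libraries too, at 51.7 and 48.6 against 22.5 and 23.8 CPM in HepG2 and at 36.1 and 32.4 against 23.4 and 27.0 CPM in SNU-449 (1.12, SE 0.131, adjusted p = 1.5e-07, and 0.45, SE 0.111, adjusted p = 0.00118). The 2 lines differed in the nuclear effect by -0.69 (SE 0.168, adjusted p = 0.00203). EIF4EBP1, the better known inhibitor, was at 828 and 461 CPM with NC in the HepG2 cytoplasm, where the NC duplicates were far apart, and at 425 and 451 with siPANAD (-0.56, SE 0.229, adjusted p = 0.0686). Its HepG2 nuclear level went from 77.5 and 83.9 to 34.7 and 43.9 CPM (-1.04, SE 0.238, adjusted p = 0.00472), a call lost without NC replicate 2 of that fraction (-0.995, adjusted p = 0.0666). In SNU-449 it did not pass in either fraction (0.15 and -0.15). Per exon length within a library, the ratio of EIF4EBP2 to EIF4E went from 2.23 and 2.30 to 16.2 and 16.9 in the HepG2 cytoplasm and from 0.839 and 1.07 to 4.91 and 4.21 in the SNU-449 cytoplasm. The ratio of EIF4EBP1 to EIF4E stayed far higher, and in HepG2 it overlapped between the siRNAs (169 and 86.5 against 143 and 150). EIF4ENIF1, which carries EIF4E into the nucleus, was lower in both HepG2 fractions (-0.50, SE 0.136, adjusted p = 0.00372, and -0.53, SE 0.128, adjusted p = 0.00146) and did not pass in the SNU-449 cytoplasm.

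Within EIF2, the carrier of the initiator tRNA, the subunits moved apart. EIF2S3, the gamma subunit that binds GTP and the tRNA, rose from 206 and 240 to 465 and 440 CPM in the HepG2 cytoplasm and from 177 and 163 to 245 and 244 CPM in SNU-449. In the nucleus it was lower with siPANAD, at 165 and 171 against 115 and 110 CPM in HepG2 and at 198 and 208 against 172 and 153 CPM in SNU-449. The groups did not overlap in any fraction. The log2 differences were 1.02 (SE 0.128, adjusted p = 3.32e-07) and 0.53 (SE 0.092, adjusted p = 1.39e-05) in the cytoplasm. In the nucleus they were -0.58 (SE 0.128, adjusted p = 0.000691) and -0.32 (SE 0.09, adjusted p = 0.00366), the last lost without siPANAD replicate 2 of the SNU-449 nucleus (-0.24, adjusted p = 0.099). EIF2S1, the alpha subunit whose phosphorylation shuts down initiation, was at 92.8 and 109 against 90.0 and 88.4 CPM in the HepG2 cytoplasm and at 156 and 151 against 171 and 175 CPM in SNU-449, and passed in neither (-0.18 and 0.18). It was lower in both nuclei (-0.49, SE 0.138, adjusted p = 0.00571, and -0.38, SE 0.101, adjusted p = 0.00251). Those nuclear calls were lost without NC replicate 1 (-0.34, adjusted p = 0.0933, in HepG2 and -0.24, adjusted p = 0.0981, in SNU-449) and without siPANAD replicate 2 (-0.40, adjusted p = 0.0867, and -0.31, adjusted p = 0.0582). Scaled by library totals the HepG2 value was -0.32 (adjusted p = 0.0692). EIF2S2, the beta subunit, followed the same course, with no call in the cytoplasm and nuclear differences of -0.60 (SE 0.126, adjusted p = 0.000358) and -0.40 (SE 0.104, adjusted p = 0.00212). EIF2A, a separate protein that can deliver the initiator tRNA without GTP, fell in the cytoplasm of both lines, from 139 and 160 to 95.9 and 100 CPM and from 23.9 and 24.0 to 14.4 and 12.9 CPM (-0.61, SE 0.131, adjusted p = 0.000389, and -0.81, SE 0.128, adjusted p = 2.6e-06). It is the gene with a TOP-like start that was lower.

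The 5 subunits of EIF2B, the exchange factor that recharges EIF2, did not rise in either cytoplasm. In HepG2 3 of 5 were lower and in SNU-449 4 of 5, with medians of -0.34 and -0.41. Over all genes 24.2% and 20.1% were lower. EIF2B3, in its catalytic part, was lower in both (-0.61, SE 0.134, adjusted p = 0.000469, and -0.36, SE 0.13, adjusted p = 0.0276), and so was EIF2B4 (-0.41, SE 0.126, adjusted p = 0.00901, and -0.41, SE 0.101, adjusted p = 0.00121). The EIF2B3 call in SNU-449 was lost when any of the 4 libraries of that cytoplasm was left out (-0.37 to -0.31, adjusted p = 0.0598 to 0.13), with DESeq2 (adjusted p = 0.0774) and with scaling by library totals (adjusted p = 0.0546). The EIF2B4 calls were lost without siPANAD replicate 1 of the HepG2 cytoplasm (-0.41, adjusted p = 0.0717) and without NC replicate 2 of the SNU-449 cytoplasm (-0.28, adjusted p = 0.0704). EIF2B5, the catalytic subunit, went down in the HepG2 nucleus (132 and 144 against 101 and 107 CPM) and up in the SNU-449 nucleus (105 and 110 against 125 and 131 CPM). In HepG2 that call was lost with library totals (-0.24, adjusted p = 0.114), without NC replicate 2 (-0.35, adjusted p = 0.05) and without siPANAD replicate 1 (-0.36, adjusted p = 0.11) of the nucleus. In SNU-449 it was lost with no filter on low counts (0.215, adjusted p = 0.0906), without NC replicate 1 (0.21, adjusted p = 0.115) and without siPANAD replicate 2 (0.215, adjusted p = 0.143). The difference between the lines in EIF2B5, kept in every alternative run, was 0.64 (SE 0.159, adjusted p = 0.00228).

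The factors of the scanning small subunit that select the start codon gave no rise with siPANAD in either fraction. In the HepG2 cytoplasm 5 of 7 fell, where 24.2% of all genes fell. In the SNU-449 cytoplasm 2 of 6 fell, where 20.1% of all genes did. So few genes cannot be set apart from that SNU-449 share. EIF5, the GTPase activator of EIF2, was at 211 and 190 CPM with NC and at 111 and 89.8 with siPANAD in the SNU-449 cytoplasm (-0.998, SE 0.098, adjusted p = 1.58e-10). In HepG2 the groups lay closer (146 and 194 against 134 and 137), and the difference of -0.33 (SE 0.134, adjusted p = 0.0473) was lost in 9 of 15 alternatives. Without NC replicate 2 of that cytoplasm it was -0.11 (adjusted p = 0.578). EIF5 differed between the lines by -0.71 (SE 0.171, adjusted p = 0.00179). EIF1AD, an EIF1A-domain protein whose place in translation is less clear, went down in the cytoplasm of both lines (-0.69, SE 0.134, adjusted p = 0.000122, and -0.54, SE 0.116, adjusted p = 0.000243), with nuclear differences of -0.09 and 0.04 that did not pass. EIF5B, which joins the large subunit, was lower in the HepG2 nucleus (-1.01, SE 0.123, adjusted p = 2.65e-07). EIF1, which guards against wrong start codons, was at 1177 and 1363 against 1033 and 929 CPM in the HepG2 cytoplasm (-0.37, SE 0.14, adjusted p = 0.0305, lost in 5 alternatives).

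The EIF3 complex, which binds the small subunit and joins it to EIF4G, was divided among its own subunits. In the HepG2 cytoplasm 9 of its 14 genes rose and 2 fell (median 0.54), and in the SNU-449 cytoplasm 5 rose and 2 fell (median 0.21). These counts are to be read beside the shares over all genes given above. EIF3E went from 342 and 424 to 776 and 722 CPM in the HepG2 cytoplasm. In the SNU-449 cytoplasm it went from 249 and 192 to 489 and 448 CPM. The log2 differences were 0.97 (SE 0.135, adjusted p = 1.61e-06) and 1.09 (SE 0.108, adjusted p = 4.17e-09). EIF3H, EIF3M and EIF3K rose by less. EIF3H changed by 0.81 (SE 0.129, adjusted p = 9.34e-06) and 0.58 (SE 0.1, adjusted p = 1.01e-05), EIF3M by 0.78 (SE 0.122, adjusted p = 8.81e-06) and 0.41 (SE 0.094, adjusted p = 0.000557), and EIF3K by 0.61 (SE 0.134, adjusted p = 0.000477) and 0.28 (SE 0.091, adjusted p = 0.0114). EIF3D, which can bind the cap itself, rose by 0.47 (SE 0.124, adjusted p = 0.00297) and 0.29 (SE 0.088, adjusted p = 0.00713). The SNU-449 calls of EIF3K and EIF3D were lost when NC replicate 1 (0.21, adjusted p = 0.166, and 0.24, adjusted p = 0.0952) or siPANAD replicate 1 (0.27, adjusted p = 0.0894, and 0.30, adjusted p = 0.0538) of that cytoplasm was left out. EIF3D was lost also without its siPANAD replicate 2 (0.31, adjusted p = 0.0521). In HepG2 EIF3D was lost without siPANAD replicate 2 of the cytoplasm (0.41, adjusted p = 0.0571). EIF3F rose in HepG2 (395 and 346 to 605 and 566 CPM, 0.66, SE 0.129, adjusted p = 0.000129) and was at 193 and 205 against 180 and 185 CPM in SNU-449. The lines differed in it by -0.83 (SE 0.165, adjusted p = 0.00018).

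EIF3J and EIF3B went the other way. EIF3J, the loosely bound subunit at the decoding site, fell from 168 and 186 to 88.4 and 85.5 CPM in the HepG2 cytoplasm and from 58.8 and 48.7 to 24.7 and 22.6 CPM in the HepG2 nucleus (-1.03, SE 0.129, adjusted p = 3.21e-07, and -1.18, SE 0.134, adjusted p = 7.92e-08). In the SNU-449 nucleus it went from 32.2 and 29.9 to 18.4 and 15.9 CPM (-0.86, SE 0.122, adjusted p = 5.86e-07). Its SNU-449 cytoplasmic difference (-0.41, SE 0.114, adjusted p = 0.00415) was lost without NC replicate 1 (-0.34, adjusted p = 0.0578) and without siPANAD replicate 1 (-0.21, adjusted p = 0.235) of that fraction. EIF3B, a scaffold subunit, fell in HepG2 from 464 and 484 to 247 and 259 CPM in the cytoplasm and from 350 and 379 to 202 and 205 CPM in the nucleus (-0.91, SE 0.127, adjusted p = 1.68e-06, and -0.84, SE 0.127, adjusted p = 6.14e-06). In the SNU-449 cytoplasm EIF3B was at 743 and 893 against 721 and 741 CPM and did not pass (-0.16, adjusted p = 0.174). The difference between lines was 0.70 (SE 0.168, adjusted p = 0.00174). The ratio of EIF3E to EIF3B per exon length within a library went from 1.11 and 1.31 to 4.71 and 4.17 in the HepG2 cytoplasm and from 0.501 and 0.322 to 1.02 and 0.905 in the SNU-449 cytoplasm. EIF3G, a subunit with an RNA-binding domain, was the EIF3 gene that rose in a nucleus: in SNU-449 it went from 291 and 270 to 429 and 454 CPM (0.66, SE 0.089, adjusted p = 1.95e-07). EIF3CL, a near-identical copy of EIF3C, was lower in the SNU-449 cytoplasm (-1.39, SE 0.163, adjusted p = 8.98e-09), and as reads can be assigned to either copy its value and that of EIF3C are uncertain.

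EIF5A, EIF5A2 and EIF6 were lower in nearly every fraction. EIF5A, the factor with the hypusine modification, was at 1013 and 969 CPM with NC and at 495 and 489 with siPANAD in the HepG2 cytoplasm, and at 267 and 295 against 116 and 117 in the HepG2 nucleus. In SNU-449 it was at 1956 and 1956 against 1710 and 1555 CPM in the cytoplasm and at 386 and 366 against 280 and 255 CPM in the nucleus. The siPANAD libraries were below the NC libraries in all 4 fractions. They were 2.01-fold and 2.41-fold lower in the cytoplasm and nucleus of HepG2 (-1.01, SE 0.13, adjusted p = 4.63e-07, and -1.27, SE 0.132, adjusted p = 1.93e-08). The SNU-449 nuclear difference was -0.49 (SE 0.091, adjusted p = 3.58e-05). In the SNU-449 cytoplasm the difference of -0.26 (SE 0.09, adjusted p = 0.0197) was lost when any of the 4 libraries of that fraction was left out, with values between -0.31 and -0.19. The effects of the lines on EIF5A differed by 0.71 (SE 0.165, adjusted p = 0.00133) in the cytoplasm and by 0.76 (SE 0.167, adjusted p = 0.000557) in the nucleus. EIF5A2, the second hypusinated form, fell by 1.36 (SE 0.149, adjusted p = 3.72e-08) and 0.60 (SE 0.138, adjusted p = 0.000625) in the cytoplasm of HepG2 and SNU-449. EIF5AL1 is a near-identical copy of EIF5A and its value is uncertain. EIF6, which keeps the large subunit from joining too early, went from 1141 and 930 to 720 and 706 CPM in the HepG2 cytoplasm and from 987 and 1142 to 850 and 800 CPM in SNU-449. Its log2 differences were -0.54 (SE 0.14, adjusted p = 0.00246) and -0.37 (SE 0.092, adjusted p = 0.00133). The second was lost without NC replicate 2 (-0.23, adjusted p = 0.119) or siPANAD replicate 2 (-0.32, adjusted p = 0.0528) of the SNU-449 cytoplasm. Per exon length within a library, EEF2 over EIF5A, the ratio of the translocase to the peptide-bond factor, went from 4.77 and 4.06 to 14.9 and 14.9 in the HepG2 cytoplasm and from 2.15 and 2.18 to 4.69 and 5.33 in the SNU-449 cytoplasm.

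**Figure D3:**
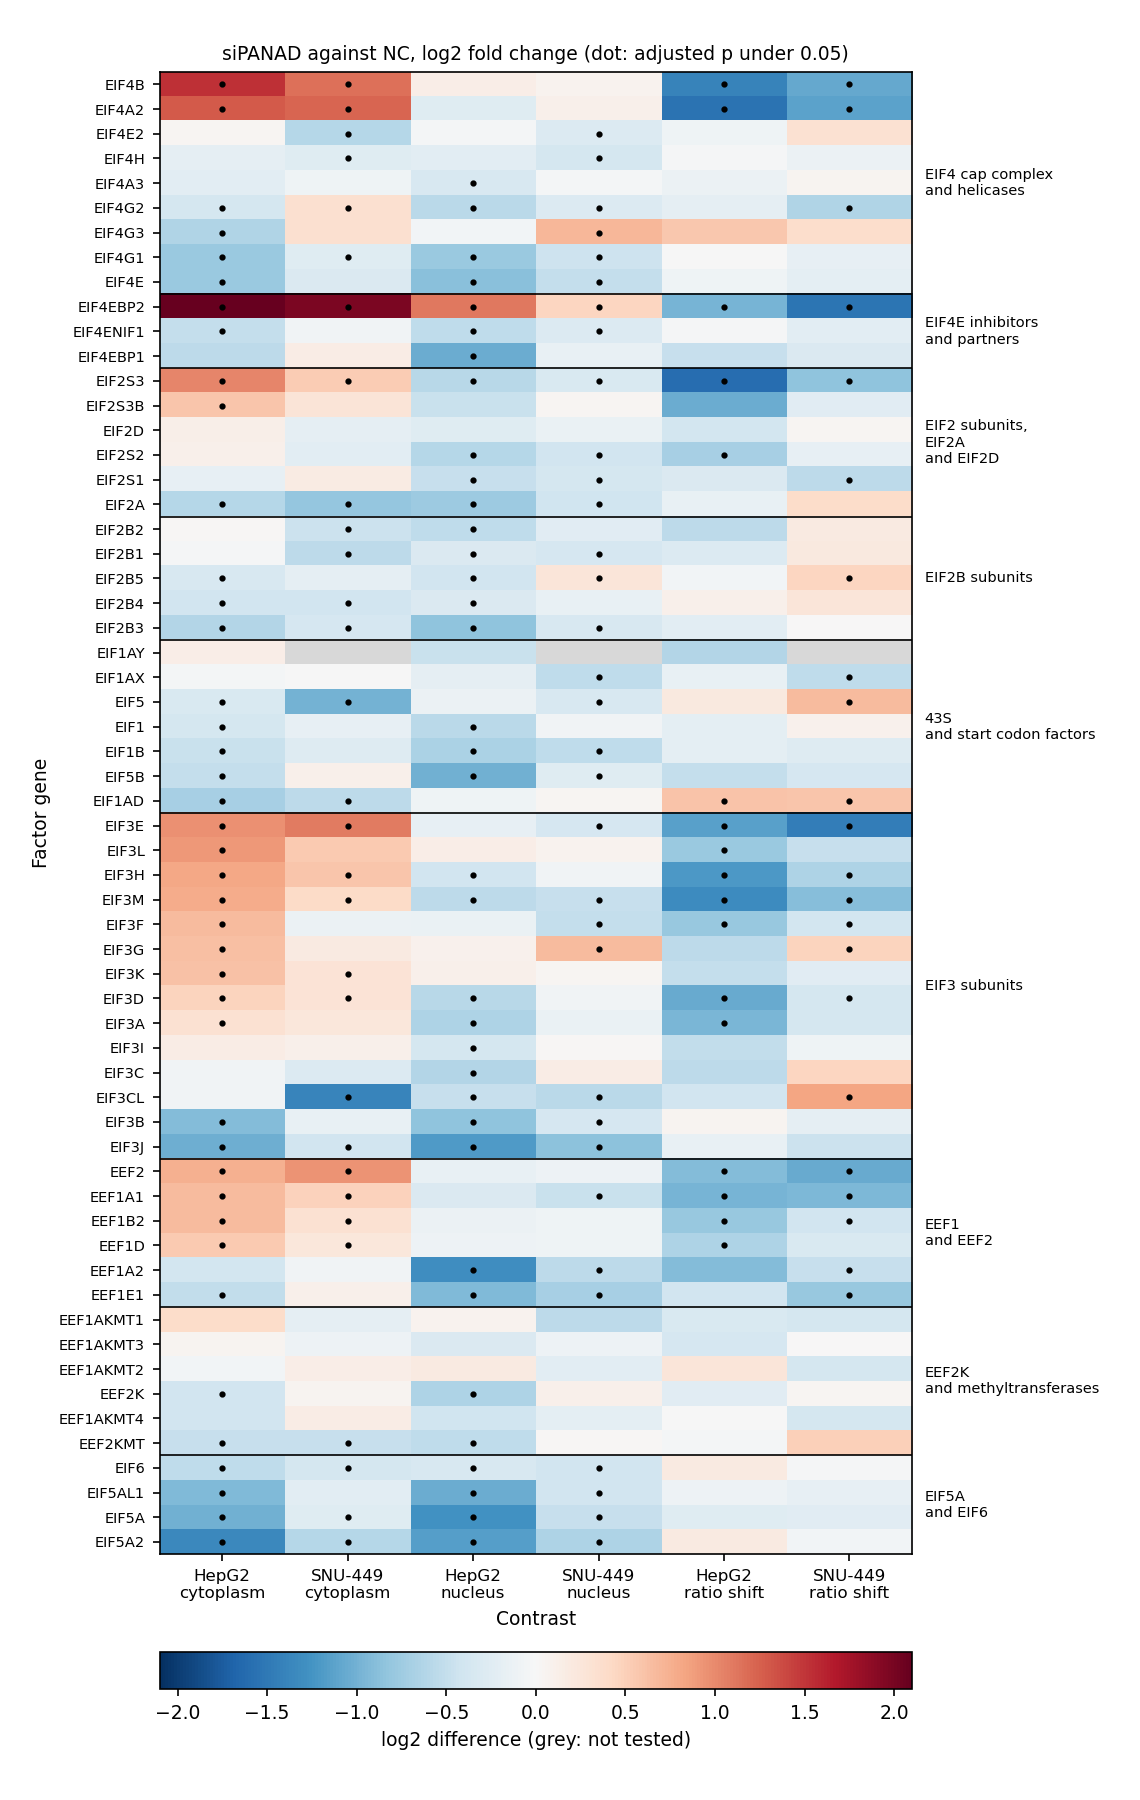
Heat map of log2 differences for 60 factor genes (rows, grouped by role) in 6 comparisons (columns: siPANAD against NC in the cytoplasm and nucleus of each line, and the shift of the nuclear to cytoplasmic ratio); colour gives the log2 difference, a dot an adjusted p under 0.05, and grey a gene not tested. The cytoplasm columns hold both directions (18 higher and 24 lower among all genes tested in HepG2). The nucleus and shift columns are mostly of the lower colour (36 and 16 lower in HepG2). EIF4A1, EIF4EBP3 and EIF4E3, at few counts, are not drawn. EIF4A1, called lower in both HepG2 fractions, is in the counts for those fractions.

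The directions in the cytoplasm were then set beside the transcript starts, a description, since the rule was written with these values known. In the HepG2 cytoplasm 11 of the 13 factor genes with a TOP-like start rose and 1 fell (median 0.67), while 1 of the 36 tested genes with another start rose and 22 fell (median -0.41). Among the 11 is EIF2S3B, a near-identical copy of EIF2S3, so its value is uncertain. Its call was lost with DESeq2 (0.58, adjusted p = 0.0948) and with library totals (0.459, adjusted p = 0.0825), among other alternatives. In SNU-449 9 of 13 rose and 1 fell (median 0.31), and of the 35 with another start 2 rose and 13 fell (median -0.22). There were exceptions. EIF2A has a TOP-like start and was lower in both cytoplasms. EIF2D, which can act in reinitiation, has one and passed in neither. EIF4EBP2, with the largest rise, starts with a G. Genes outside the factor list gave smaller differences between the kinds of start: in the HepG2 cytoplasm 36.6% of 748 other genes with a TOP-like start rose and 23.8% fell (median 0.20). Of 10563 with another start 24% rose and 28.2% fell (median -0.05). In SNU-449 29.3% of 777 rose and 22% fell, against 21.5% and 23.6% of 11010. Among ribosomal protein genes, 39 of 49 with a TOP-like start and 14 of 19 with another start rose in HepG2 cytoplasm, and 19 of 48 (39.6%) and 8 of 19 (42.1%) in that of SNU-449. Of the factor genes known as TOP mRNAs from textbooks, 10 of 11 tested rose in the HepG2 cytoplasm (median 0.67) and 8 of 11 in SNU-449 (median 0.48). None of them rose in either nucleus, where 4 and 5 fell.

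A second motif, the E-box CACGTG (a palindrome, so the same on both strands), which MYC and related factors bind, was found within the 300 bases around the start (250 before and 50 after) in 14 of the 54 factor genes (25.9%), against 8.77% of all genes and 7.14% of ribosomal protein genes with an entry. EIF4E, EIF4G1, EIF4A3, EIF5A2, EIF2B3 and EEF2K held it, as did EIF4B, EIF3F and EIF3K, so genes of both directions in the HepG2 cytoplasm were among them. MYC itself was lower in HepG2 (-1.53, SE 0.149, adjusted p = 4.94e-09 in the cytoplasm and -1.41, SE 0.148, adjusted p = 2.26e-08 in the nucleus) and did not pass in SNU-449 (0.11, adjusted p = 0.448, and 0.01, adjusted p = 0.935). The part of MYC in these values was not tested.

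The ratio of nuclear to cytoplasmic RNA, followed by its shift (the nuclear minus the cytoplasmic log2 difference), was lower with siPANAD for a group of the factor genes, whose mRNA was then relatively more cytoplasmic. It uses the same libraries as the fraction comparisons above and is not a separate measurement. In HepG2 16 of 62 genes had a lower ratio and EIF1AD a higher one (median -0.31), where 9.89% of all genes passed (4.91% higher, 4.98% lower) with a median of -0.005. Scaled by library totals, the HepG2 median over all genes was 0.27, with 2665 genes higher and 392 lower. The calls of EEF1B2 (-0.511), EEF1D (-0.366) and EIF2S2 (-0.43) were then lost. Where the typical HepG2 gene lies thus depends on the scaling. In SNU-449 18 of 61 had a lower and 6 a higher ratio (median -0.23), where 20.2% of all genes passed (9.69% higher, 10.5% lower) with a median of -0.03. The ratio was lower in both lines for EEF1A1, EEF1B2, EEF2, EIF2S3, EIF3D, EIF3E, EIF3F, EIF3H, EIF3M, EIF4A2, EIF4B and EIF4EBP2. Several of these calls were not stable: of 15 alternatives, EIF3F lost the SNU-449 call in 8 (values of -0.50 to -0.27 over all of them) and EIF3D in 7 (-0.44 to -0.30). EEF1B2 lost it in 5 (-0.49 to -0.31), and in 4 in HepG2 (-0.86 to -0.51). EIF3F lost the HepG2 call in 1, without siPANAD replicate 1 of the cytoplasm (-0.68, adjusted p = 0.058). The higher ratio of EIF1AD in HepG2 was lost in 8. EIF2S3 had the most negative shift in HepG2 (-1.60, SE 0.181, adjusted p = 1.52e-05; -0.85, SE 0.128, adjusted p = 7.73e-06 in SNU-449). EIF4EBP2 had it in SNU-449 (-1.53, SE 0.162, adjusted p = 1.39e-08; -0.97, SE 0.18, adjusted p = 0.000964 in HepG2). EIF4A2 shifted by -1.55 (SE 0.196, adjusted p = 2.34e-05) and -1.12 (SE 0.138, adjusted p = 2.36e-07). EIF4B shifted by -1.41 (SE 0.187, adjusted p = 3.45e-05) and -1.08 (SE 0.129, adjusted p = 1.46e-07), EIF3E by -1.14 (SE 0.192, adjusted p = 0.000405) and -1.45 (SE 0.154, adjusted p = 1.51e-07). EEF1A1 and EEF2 shifted in HepG2 by -0.97 (SE 0.229, adjusted p = 0.007) and -0.91 (SE 0.214, adjusted p = 0.00719). Without siPANAD replicate 2 of the HepG2 nucleus the EEF1A1 value was -0.94 with an adjusted p of 0.0738, and without its replicate 1 the EEF2 value was -0.83 with an adjusted p of 0.0758. EIF5 in SNU-449 shifted the other way (0.67, SE 0.137, adjusted p = 0.000485). EIF4E, EIF4G1, EIF5A and EIF6, lower with siPANAD, had no shift past the threshold in either line.

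With the control siRNA alone, most factor mRNAs were more abundant in the cytoplasm than the nucleus, relative to the typical gene of each fraction, since TMM scaling sets the middle of the genes equal. In HepG2 47 of 62 were lower in the nucleus and 10 higher (median log2 ratio -1.26), where 77.1% of all genes passed (39.4% higher, 37.7% lower) with a median of 0.04. In SNU-449 41 of 61 were lower and 13 higher (median -0.93), where 79.8% passed (43.5% higher, 36.2% lower) with a median of 0.22. Scaled by library totals instead, which moves the median over all genes to 0.66 and 1.06, the split was 38 lower and 14 higher in HepG2 and 23 lower and 21 higher in SNU-449. The direction for the family in SNU-449 thus depends on the scaling. Among the most cytoplasmic were EIF4EBP1 (-3.00, SE 0.247, adjusted p = 6.79e-07, and -3.09, SE 0.118, adjusted p = 1.71e-19), EEF1B2 (-2.92, SE 0.157, and -1.94, SE 0.093) and EIF3I, another EIF3 subunit (-2.40, SE 0.132, and -3.20, SE 0.096). The 7 genes higher in the nucleus in both lines were EIF3A, EIF4A1, EIF4A2, EIF4ENIF1, EIF4G1, EIF4G3 and EIF5B. They are the large scaffold subunit of EIF3, some of the helicases and EIF4G scaffolds, the EIF4E transporter and the joining factor. The scaffold EIF4G2 was lower in the nucleus of both lines. The helicase EIF4A3 was lower in that of HepG2 and did not pass in SNU-449. EIF4A1 had few counts, so its call is uncertain. EIF4A2, with 5 snoRNA genes inside it, had a ratio of 1.16 (SE 0.139, adjusted p = 3.96e-08) in HepG2 and 3.51 (SE 0.106, adjusted p = 3.75e-26) in SNU-449. Among the factor genes longer exon sequence went weakly with a more nuclear position. The Pearson coefficient was 0.17 over 62 genes in HepG2 and 0.38 over 61 in SNU-449. Over all genes tested it was -0.058 and -0.065. This is a description across genes of the same libraries.

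**Figure D4:**
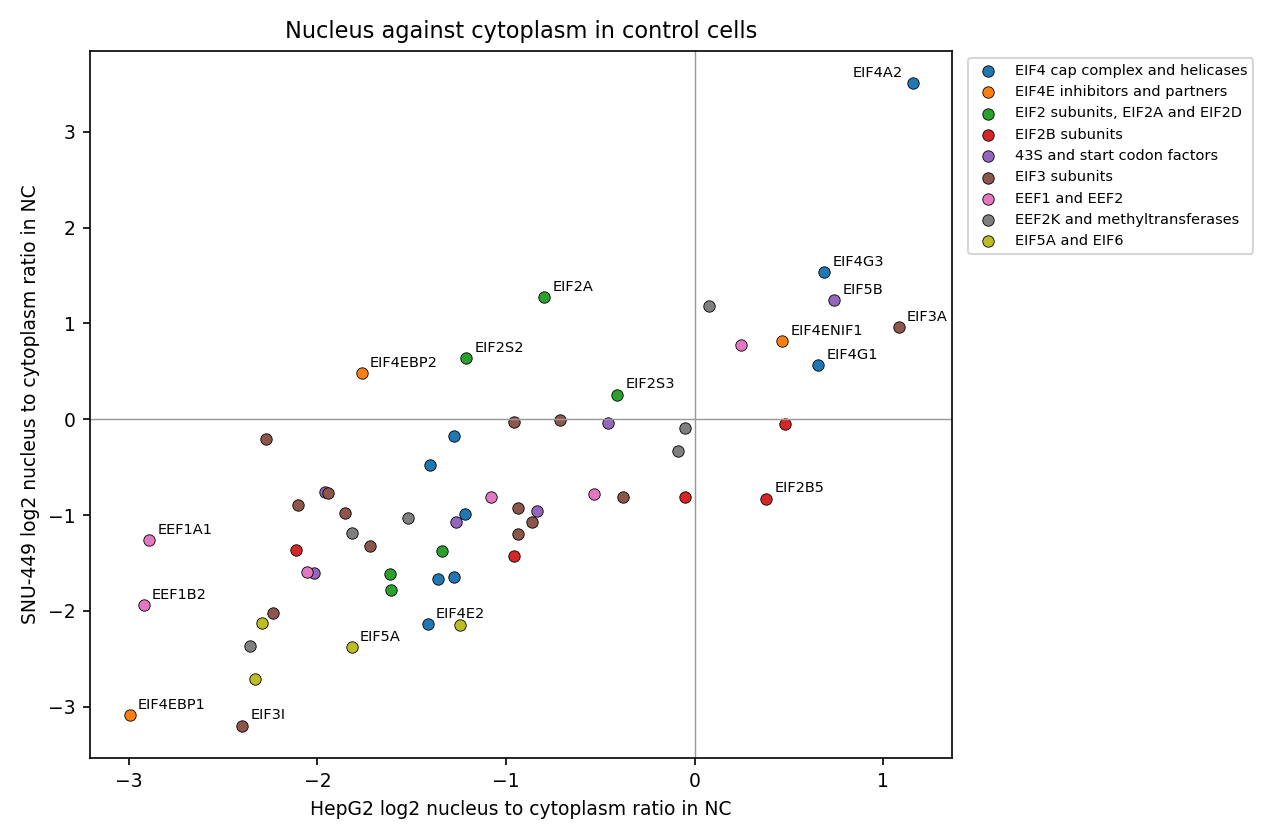
Log2 ratio of nucleus to cytoplasm with the control siRNA for 59 factor genes, HepG2 on the x axis and SNU-449 on the y axis, coloured by role (EIF4A1, at few counts, is left out). Most points lie below 0 on both axes, and EIF4A2 stands highest in SNU-449 (3.51, against 1.16 in HepG2).

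Between the lines, the baseline ratio differed for 31 of 63 factor genes, 24 with a higher and 7 with a lower value in SNU-449, where 33.3% of all genes passed (20% higher, 13.4% lower). The median over all genes was 0.139. It was -0.032 with DESeq2 size factors (3195 higher, 3604 lower) and 0.336 with library totals (5186 higher, 1913 lower). The lean over all genes towards a higher value in SNU-449 thus depends on the scaling. EIF4A2 (2.38, SE 0.178, adjusted p = 1.06e-14), EIF4EBP2 (2.27, SE 0.175, adjusted p = 2.32e-14) and EIF2A (2.104, SE 0.17, adjusted p = 9.35e-14) were relatively more nuclear in SNU-449, and so was EEF1A1 (1.66, SE 0.189, adjusted p = 9.82e-10). EIF2B5 was relatively more nuclear in HepG2 (-1.19, SE 0.16, adjusted p = 4.89e-08). The effect of siPANAD itself differed between the lines for 17 genes in the cytoplasm, 9 higher and 8 lower in SNU-449 than in HepG2, where 18.2% of all genes passed (9.17% higher, 8.98% lower). In the nucleus it differed for 14 genes, 13 higher and 1 lower, where 20.9% passed (11.3% higher, 9.61% lower). These counts rest on single libraries more than the others. The cytoplasmic count was 9 without siPANAD replicate 2 of the SNU-449 cytoplasm and 11 without siPANAD replicate 1 of the HepG2 cytoplasm. The nuclear count was 7 without siPANAD replicate 1 of the HepG2 nucleus, and 8 without its replicate 2 or without siPANAD replicate 1 of the SNU-449 nucleus. EIF4G3, a scaffold related to EIF4G1, showed the widest cytoplasmic gap between lines among the genes that passed and have no near-identical copy. It fell in the HepG2 cytoplasm (-0.63, SE 0.139, adjusted p = 0.000491) and rose in the SNU-449 nucleus (0.70, SE 0.117, adjusted p = 7.08e-06). Its differences between lines were 0.93 (SE 0.213, adjusted p = 0.00114) in the cytoplasm and 0.74 (SE 0.17, adjusted p = 0.000941) in the nucleus. EIF4E2, a cap-binding protein used in translational repression, was lower in the SNU-449 cytoplasm (-0.60, SE 0.093, adjusted p = 1.68e-06) and at 0.05 (adjusted p = 0.798) in HepG2. The difference was -0.69 (SE 0.164, adjusted p = 0.00165).

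The genes that act on these factors gave mixed counts. Of 16 genes of the mTORC1 pathway and cap-binding control, 2 rose and 6 fell in the HepG2 cytoplasm (median -0.26) and 2 rose and 3 fell in the SNU-449 cytoplasm (median -0.06), against the shares over all genes given above. RPS6KB1, the S6 kinase downstream of mTORC1, fell in both (-1.77, SE 0.151, adjusted p = 4.89e-10, and -1.89, SE 0.143, adjusted p = 4.33e-12). RPTOR, the mTORC1 scaffold, fell as well (-1.22, SE 0.135, adjusted p = 4.44e-08, and -0.40, SE 0.092, adjusted p = 0.000546). PDCD4, an inhibitor of EIF4A that S6 kinase marks for degradation, rose in both (0.91, SE 0.154, adjusted p = 2.15e-05, and 1.16, SE 0.205, adjusted p = 3.17e-05). LARP1, the TOP mRNA binder, named here after its values were seen, was lower in the HepG2 cytoplasm (-0.36, SE 0.125, adjusted p = 0.021) and at 0.09 in that of SNU-449 (adjusted p = 0.48). Of 12 genes of the integrated stress response, which acts on EIF2, 4 rose and 5 fell in the HepG2 cytoplasm and 3 rose and 3 fell in SNU-449. ATF4, its transcription factor, was lower in both (-0.57, SE 0.138, adjusted p = 0.00133, and -0.73, SE 0.091, adjusted p = 2.83e-08). So was PPP1R15A, which recruits the EIF2 phosphatase (-1.67, SE 0.141, adjusted p = 4.15e-10, and -0.41, SE 0.105, adjusted p = 0.0024). The EIF2 kinase gene EIF2AK4 was higher in both cytoplasms (0.91, SE 0.128, adjusted p = 1.61e-06, and 0.29, SE 0.099, adjusted p = 0.0197).

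The remaining steps of translation were counted in the same way. Over all genes tested, 47.9% passed in the HepG2 cytoplasm and 39.7% in that of SNU-449. The counts of these small lists are to be read beside those shares. Of the termination, recycling and rescue genes, none of 7 rose and 4 fell in the HepG2 cytoplasm, and 1 of 8 rose and 4 fell in SNU-449. The release factor genes GSPT1 (-1.12, SE 0.127, adjusted p = 6.66e-08, and -0.38, SE 0.115, adjusted p = 0.00786) and ETF1 (-0.64, SE 0.125, adjusted p = 0.000122, and -0.42, SE 0.091, adjusted p = 0.000325) were lower in both lines. Of 8 genes that make hypusine on EIF5A or diphthamide on EEF2, 2 rose and 4 fell in HepG2 and 3 rose and 4 fell in SNU-449. DPH5, a diphthamide enzyme, rose in both (1.28, SE 0.135, adjusted p = 1.89e-08, and 1.19, SE 0.101, adjusted p = 4.18e-12). DOHH, the last enzyme of hypusine synthesis, was lower in both (-0.55, SE 0.142, adjusted p = 0.00221, and -0.31, SE 0.097, adjusted p = 0.00874). Among poly(A)-binding proteins and helicases 3 of 6 rose and 1 fell in HepG2, and 3 of 7 rose and none fell in SNU-449. PABPC1, itself a TOP mRNA, was at 0.57 (SE 0.154, adjusted p = 0.0035) and 0.97 (SE 0.103, adjusted p = 5.54e-09). The mitochondrial translation factors, encoded in the nucleus, showed 4 of 10 higher and 3 lower in the HepG2 cytoplasm and 3 higher and 2 lower in that of SNU-449. The 85 ribosomal protein genes tested gave 69 higher and 2 lower in HepG2 (median 0.92) and 36 higher and 4 lower in SNU-449 (median 0.26). In the nuclei of HepG2 and SNU-449, 7 and 5 were higher and 6 and 19 lower. That is a smaller share than the 45.6% and 46% of all genes that passed there.

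Several factor genes could not be measured well in these tables. EEF1G, a subunit of the EEF1B complex, had 0 counts in all 16 libraries, and 99.9% of its exon sequence in GENCODE release 29 is shared on the same strand with another annotated gene. EIF4A1, the main EIF4A helicase, had 7 to 58 counts in the cytoplasmic libraries and 187 to 480 in the nuclear ones, and 43.4% of its exon sequence overlaps the read-through gene SENP3-EIF4A1. Of the counts of EIF4A1 and its 13 annotated pseudogenes, 91.2% to 98.4% fell on the pseudogenes in cytoplasmic and 33.1% to 66.5% in nuclear libraries. The calls of EIF4A1 above are therefore uncertain, and its level cannot be set beside EIF4A2. Over all libraries the share on pseudogenes was 3.28% to 16.5% for EIF4E and 0.999% to 15.5% for EIF1AX. The read-through genes EEF1E1-BLOC1S5 and EEF1AKMT4-ECE2 had 0 counts, EIF4E1B at most 1, and EIF4EBP3, which shares 73.4% of its exon sequence with a neighbour, at most 15. EIF3L, an EIF3 subunit higher in the HepG2 cytoplasm (0.92, SE 0.129, adjusted p = 1.8e-06), shares 41.1% on the same strand. Antisense neighbours cover more than 10% of the exon sequence of EIF5B, EEF1D, EEF1AKMT3, EEF1AKMT4, EEF2KMT, EIF2B1, EIF2B2, EIF2B3, EIF3L, EIF4B and EIF4E2. With the strand setting of the counting not given, reads of such pairs may not have been told apart.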

How the data were processed

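The authors deposited, for each line, a table of unnormalised counts of reads per gene. Trim Galore (0.6.4) and HISAT2 (2.2.1) on hg38 are named by the submitters' processing notes, and per the labels' protocols the libraries were directional. The counting program, annotation release and strand setting are not given in the sources used here. Symbols, positions and overlaps came from GENCODE 29. The factor genes, gene lists, named genes and TOP rule were chosen with earlier results of these data known; library values are given for the genes with the 4 largest called rises, falls and shifts in a comparison and for the best known factors, and other pathway genes are named for the 2 largest called changes in a direction. In R 4.3.3, edgeR 4.0.16 was run on each line's 8 libraries with 1 mean per group: filterByExpr (minimum count 10), TMM scaling, robust glmQLFit and glmQLFTest, two-sided, with Benjamini-Hochberg adjustment over the 17499 (HepG2) or 17895 (SNU-449) genes tested, of which 62 and 61 were factor genes. Lines were compared in 1 fit of 16 libraries (20459 genes; the effect in SNU-449 minus that in HepG2). A log2 difference is siPANAD minus NC, or nucleus minus cytoplasm. With 2 libraries a group, p-values measure the spread between these cultures only, and counting error is not separable from PCR copies. The groups of a line shared their estimate of the spread. The HepG2 cytoplasmic NC duplicates lay farther apart than those of the other HepG2 groups (chi-square per degree of freedom 29.87 against 4.833 to 10.95). HepG2 p-values that use this group may therefore be too small. RPKM used exon-union lengths. DESeq2 1.42.0, other scalings and filters, a replicate block and leaving out each library were the alternatives. The script was tested on simulated data. The entry of 1 gene, broken over 8 lines, was left out.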

Additional observations from a re-analysis of the deposited data

Results flagged for a closer look

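For the genes here the effect of siPANAD differed between the lines by the test of the difference itself (SNU-449 minus HepG2, adjusted p under 0.05 in the fit of all 16 libraries); the values are differences of log2 differences. In the cytoplasm the effect was lower in SNU-449 for EIF3CL (-1.36), EIF3F (-0.83), EIF5 (-0.71), EIF4E2 (-0.69), EIF2B1 (-0.56), EIF2S3 (-0.54), EIF2B2 (-0.5) and EIF3G (-0.48). It was higher in SNU-449 for EIF4G1 (0.48), EIF5B (0.57), EIF3J (0.58), EIF5AL1 (0.67), EIF4G2 (0.67), EIF3B (0.7), EIF5A (0.71), EIF5A2 (0.72) and EIF4G3 (0.93). Of these 17, the calls of EIF5, EIF3B, EIF3CL, EIF3F, EIF4E2, EIF4G2, EIF4G3 and EIF5A, 8 in all, were kept in every alternative run.

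In the nucleus the effect was lower in SNU-449 for EIF4EBP2 (-0.69). It was higher for EIF3B (0.47), EIF1 (0.48), EIF3D (0.5), EIF3A (0.5), EIF3G (0.56), EIF5AL1 (0.63), EIF2B5 (0.64), EEF2K (0.72), EEF1A2 (0.72), EIF4G3 (0.74), EIF5B (0.75), EIF5A (0.76) and EIF4A1 (1.31, at low counts). Of these 14, the calls of EIF5B, EEF2K, EIF2B5, EIF4A1, EIF4G3, EIF4EBP2 and EIF5A, 7 in all, were kept in every alternative run.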

How the results depend on the processing

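No count of called factor genes moved by more than 1.5 times under DESeq2, DESeq2 size factors, library totals, a minimum count of 50, no filter or, within a line, a fit of the compared groups only. With each library left out in turn, the counts ran from 34 to 44 (HepG2 cytoplasm), 27 to 41 (HepG2 nucleus), 22 to 32 (SNU-449 cytoplasm), 22 to 35 (SNU-449 nucleus), 12 to 22 and 17 to 25 (ratio shift in HepG2 and SNU-449), 56 to 58 and 53 to 55 (NC nucleus against cytoplasm), 9 to 20 and 7 to 16 (line differences in the cytoplasm and nucleus) and 27 to 32 (baseline ratio). Single calls kept in every alternative numbered 32 of 42 and 24 of 37 in the HepG2 cytoplasm and nucleus and 18 of 30 and 20 of 35 in those of SNU-449, and 9 of 17 and 12 of 24 for the shifts. Scaled by library totals, these NC nucleus to cytoplasm ratios turned positive: in HepG2 EEF1D (0.084), EEF2K (0.54), EIF1AD (0.16), EIF2S3 (0.21) and EIF3B (0.24), and in SNU-449 EEF1A2 (0.04), EEF1D (0.067), EEF2K (0.52), EIF1 (0.10), EIF2B1 (0.041), EIF2B5 (0.02), EIF3B (0.04), EIF3E (0.081) and EIF4E (0.37). That scaling makes no allowance for a few genes that take much of a library. Replicates with the same number did not deviate together (correlations of -0.21 to 0.12). With so few libraries this cannot show whether a number links libraries of the same culture, and the main fit used no pairing. With the replicate block the called counts were 40 and 33 in the HepG2 cytoplasm and nucleus and 30 and 34 in SNU-449. They were 16 and 24 for the shifts and 57 and 54 for the NC ratios. For the line differences in the cytoplasm, the nucleus and the baseline ratio they were 15, 11 and 29.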
